A study of Mus musculus with 12 samples.

Results

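The genes described here encode acute-phase proteins, plasma proteins that the liver secretes in larger amounts during inflammation. The 10 members were taken by gene symbol from the count tables: the serum amyloid A genes Saa1, Saa2, Saa3 and Saa4, the orosomucoid genes Orm1, Orm2 and Orm3, haptoglobin (Hp), lipocalin 2 (Lcn2) and serum amyloid P component (Apcs). They are 10 of the 50559 genes listed, and all 10 passed the filter on low counts in each comparison. RNA was sequenced from liver of C57BL/6N mice in 4 groups of 3 libraries. The NCD group ate normal chow and the HFD group a high-fat diet with 60% of its energy from fat, both for 12 weeks. The HFD+C1 and HFD+C2 groups ate the high-fat diet and received the compound C1 or C2, which the series title calls CYP4A inhibitors, at a daily intraperitoneal dose of 5 mg/kg for 12 weeks. The labels give no structure for either compound, no age and no sex, and do not state whether the NCD and HFD mice were injected with vehicle. They number the libraries of a group as biological replicates, and p-values measure the spread between those libraries.

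Hepatocytes are the main source of most acute-phase proteins. Interleukin-6 family cytokines, interleukin-1 and tumour necrosis factor reach hepatocytes through surface receptors, and the transcription factors STAT3, C/EBP beta, C/EBP delta and NF-kappa B carry the signal to the genes. Serum amyloid A proteins are carried on high-density lipoprotein, orosomucoids bind small lipophilic molecules, haptoglobin captures free haemoglobin, and lipocalin 2 binds bacterial siderophores and so withholds iron. In obesity, a lasting low-grade form of this response is known in liver and adipose tissue.

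The library depth and quality were uneven. The shallowest, NCD replicate 2, had 4281210 reads in genes and the deepest, HFD replicate 1, had 32124248. Levels are given as CPM, read counts divided by these totals and expressed per 1000000 reads. A count of 3, taken as the floor of detection, stands for 0.0934 to 0.701 CPM. Both depth and the share of reads not assigned to a gene moved with the groups: every NCD library had fewer gene reads than every HFD library, and unassigned reads made up 58.2%, 35.7% and 40.7% of the NCD libraries, 31.9% to 32.9% of HFD, 27.3% to 28.7% of HFD+C1, and 47.1%, 27.4% and 27.9% of HFD+C2. The NCD and HFD+C1 shares did not overlap those of HFD, and their part in the diet and C1 values was not tested. Libraries also stood apart within their groups: the chi-square per degree of freedom between HFD+C2 replicate 1 and its partners was 390 and 456, that between NCD replicate 1 and its partners 69.0 and 105, those between HFD replicate 2 and its partners 63.9 and 61.1, and that of the other 6 pairs 13.4 to 42.1. This chi-square grows with depth, so it does not rank pairs of unlike depth. No pair of libraries within a group agreed within counting noise, which leaves out the spread between biological replicates. Many member values that turn on HFD+C2 replicate 1, NCD replicate 1 or HFD replicate 2 are given with and without it. Values that changed sign with 1 library left out are given as ranges at the end. The 8 hepatocyte markers summed to 53437 to 98185 CPM in NCD, 110320 to 124370 in HFD, 117850 to 123120 in HFD+C1 and 109400 to 151000 in HFD+C2, where NCD replicate 1 alone gave the lowest value and the other NCD libraries 96487 and 98185. None of these markers was called in any comparison. For the diet 5 of 8 reached an unadjusted edgeR p under 0.05, against 28.9% of all genes tested. In bulk tissue, fewer cells of a type and less RNA per cell cannot be told apart.

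Of the members, 7 sit in gene clusters. In the GENCODE M21 annotation of GRCm38, the build named mm10 in the submitters' processing notes, Saa3 (chr7:46711998-46715700), Saa4 (chr7:46727998-46732603) and Saa1 (chr7:46740497-46742980) lie on the minus strand and Saa2 (chr7:46751790-46754313) on the plus strand. Orm1 (chr4:63344560-63348163), Orm3 (chr4:63356162-63359511) and Orm2 (chr4:63362449-63365878) follow each other on the plus strand. Hp (chr8:109575128-109579172), Lcn2 (chr2:32384633-32388252) and Apcs (chr1:172893961-172895041) stand alone on the minus strand. All 10 are protein-coding and no exon of theirs overlaps that of another gene. The reference transcripts of Saa1 and Saa2 are 93.9% identical and those of Orm1 and Orm2 91.0%, so reads can be lost from or split between these pairs. The shared stretches are short: 13.2% of the 50-base windows of Saa1 occur in Saa2, and 20.4% of those of Orm1 in Orm2. Saa1 and Saa2 also carry each other's name as a synonym in RefSeq, and their values are best read together.

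Promoter sequence was available for 8 of the 10 members in the RefSeq table (GRCm38.p6), the entries for Orm1 and Hp not being matched. The 250 bases before the start are printed, 5′ to 3′ on the gene's strand, for the 3 members called in the diet comparison (Lcn2, Saa2 and Saa4) and for Saa1 and Orm2, the members that varied most like Saa2. They are those of Saa1 (chr7:46742981-46743230, minus strand), Saa2 (chr7:46751583-46751832, plus strand), Saa4 (chr7:46732604-46732853, minus strand), Orm2 (chr4:63362199-63362448, plus strand) and Lcn2 (chr2:32387740-32387989, minus strand). The RefSeq starts of Lcn2 and Saa2 used here lie inside the GENCODE genes, whose longest forms begin further upstream: all 250 printed bases of Lcn2 and the last 43 of Saa2 are within the annotated gene.
Saa1: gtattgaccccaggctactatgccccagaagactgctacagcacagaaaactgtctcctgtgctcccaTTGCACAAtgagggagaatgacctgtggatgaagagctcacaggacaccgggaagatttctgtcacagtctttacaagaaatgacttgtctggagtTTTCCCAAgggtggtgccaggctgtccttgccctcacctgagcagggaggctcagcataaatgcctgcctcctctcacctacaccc
Saa2: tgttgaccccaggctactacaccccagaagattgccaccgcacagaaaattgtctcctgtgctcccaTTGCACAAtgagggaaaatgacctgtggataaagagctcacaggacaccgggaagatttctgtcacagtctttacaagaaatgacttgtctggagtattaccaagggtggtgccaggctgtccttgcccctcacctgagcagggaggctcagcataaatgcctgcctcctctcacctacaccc
Saa4: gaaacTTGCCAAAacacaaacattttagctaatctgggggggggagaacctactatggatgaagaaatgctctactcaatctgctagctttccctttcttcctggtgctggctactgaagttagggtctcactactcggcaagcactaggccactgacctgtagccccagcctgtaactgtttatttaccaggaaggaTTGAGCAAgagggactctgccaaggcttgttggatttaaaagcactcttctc
Orm2: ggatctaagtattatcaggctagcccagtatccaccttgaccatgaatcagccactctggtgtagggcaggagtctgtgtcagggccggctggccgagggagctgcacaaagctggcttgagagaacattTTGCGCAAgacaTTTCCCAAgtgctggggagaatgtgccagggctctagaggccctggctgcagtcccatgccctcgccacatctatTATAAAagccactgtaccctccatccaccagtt
Lcn2: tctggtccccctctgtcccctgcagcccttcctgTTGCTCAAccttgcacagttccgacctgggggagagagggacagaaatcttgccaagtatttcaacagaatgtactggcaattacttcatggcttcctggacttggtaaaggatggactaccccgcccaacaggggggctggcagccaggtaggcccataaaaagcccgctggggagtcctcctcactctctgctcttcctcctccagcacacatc
Capitals mark letters that match 1 of 5 motifs searched on both strands: TTNNGNAA, of the C/EBP type; GGGNN followed by TTTCC, of the NF-kappa B type; TTCNNNGAA, of the STAT type; CTGGGAA, the type II interleukin-6 response element; and TATAAA, the TATA box. TTNNGNAA occurred in 7 of the 8 member promoters and in 36.8% of 32851 promoters of the same length. Saa3 held 4 matches of it, Saa1, Saa4 and Orm2 held 2 each, Saa2, Orm3 and Lcn2 held 1 each, and Apcs held none. TATAAA was found in Orm2 and Orm3 (12.4% of all promoters). CTGGGAA was found 2 times in Apcs (9.10% of all promoters), and TTCNNNGAA 1 time in Apcs (7.02%). The NF-kappa B type motif was in 0 of the 8 (1.41% of all promoters), which says only that these letters are not in this window. The Saa1 and Saa2 windows were 94.8% identical over the alignment, against 42.6% to 48.9% for the other serum amyloid pairs, and those of Orm2 and Orm3 were 85.5% identical. The Saa1 window has a second C/EBP-type match, 86 bases before the start, that the Saa2 window lacks. A match to such short motifs is a description of the sequence and not a binding site.

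Levels differed widely among the members. Compared per length of transcript in the HFD group, Hp was highest at 2586 ± 257 CPM per kilobase (SD, n = 3), followed by Orm1 at 823 ± 99.0 and Saa4 at 149 ± 5.60. Saa1 (59.0 ± 14.9), Saa2 (48.6 ± 14.5), Orm2 (45.4 ± 17.8) and Apcs (41.6 ± 0.676) came next. These 4 neighbours in the order overlapped in their libraries. Lcn2 (21.7 ± 7.93), Orm3 (15.5 ± 9.08) and Saa3 (11.2 ± 2.66) were lowest, again with overlap between neighbours, while every HFD library of Apcs lay above those of Lcn2. In NCD the same 3 genes, Hp, Orm1 and Saa4, led the order at 2631 ± 156, 1220 ± 73.4 and 94.3 ± 14.7 CPM per kilobase, each without overlap with the next. Lcn2 was last in NCD at 1.60 ± 1.11, below Orm3 at 8.28 ± 2.20. With C1, Saa2, next in the order below Saa4, reached 305 CPM per kilobase in HFD+C1 replicate 2, above the 176 of the highest Saa4 library. In the other C1 libraries it stood at 45.3 and 63.9, below the 134 of the lowest Saa4 library.

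**Figure D1:**
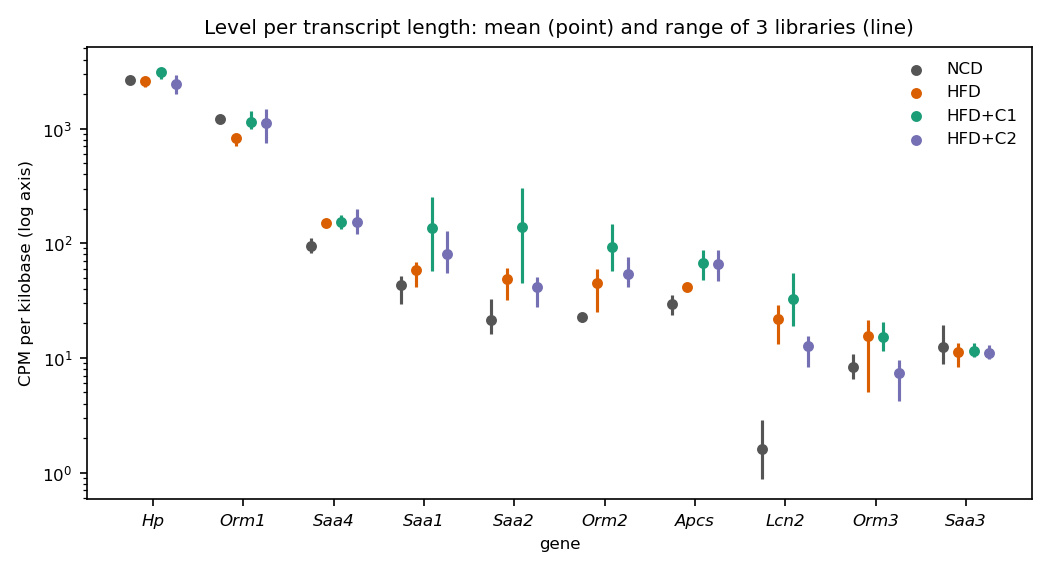
Level of each member per length of its reference transcript, in CPM per kilobase on a log axis, for the NCD, HFD, HFD+C1 and HFD+C2 groups. Points are means and lines the range of 3 libraries; Hp and Orm1 lie above all other members in each group, and Lcn2 in NCD, at a mean of 1.60, lies lowest.

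The first comparison set HFD against NCD, groups that differed in library depth and unassigned reads as well as in diet. Lcn2 rose 13.4-fold, and Saa2 and Saa4 rose 2.64-fold and 1.83-fold. These 3 of the 10 members were called, all of them higher, where 6.03% of the 13864 genes tested were called in either direction and 2.59% were called higher and 3.44% lower. A call means an adjusted p under 0.05 in the quasi-likelihood test of edgeR, with p-values adjusted over all genes tested by the Benjamini-Hochberg method. The count of members was 5 without NCD replicate 1, 2 without NCD replicate 3, 1 without NCD replicate 2 or with library size alone, and 0 without HFD replicate 1 or HFD replicate 3. Without HFD replicate 2, the lowest HFD library for 9 of the 10 members (29.2% of genes with a mean count of 10 or more), it was 3 again, but these were Orm2, Orm3 and Lcn2. The members' median log2 change was 0.79, against -0.02 over all genes tested, and 9 of 10 changes were above 0 (48.5% of all genes). At an unadjusted p under 0.05 there were 7 members, against 28.9% of all genes. The 8 hepatocyte markers had a similar median log2 change of 0.70, with 6 of 8 above 0, so the members' median is not shown to be particular to them. Library size alone, the scale on which the CPM values are given, places the median of all genes 0.22 lower on the log2 scale than the TMM factors used in the test, so a change near 0 can differ in sign between the scales.

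Lcn2, the siderophore-binding lipocalin, was close to the floor in NCD replicates 1 and 2, though not in NCD replicate 3. It stood at 0.81, 0.934 and 2.64 CPM in NCD replicates 1 to 3, from 8, 4 and 61 reads, and at 26.3, 12.0 and 21.2 CPM in the HFD libraries. All HFD libraries lay above all NCD libraries, and the lowest of them was more than 4 times the highest NCD value. The log2 change was 3.75 (SE 0.50; 95% interval 2.60 to 4.89; edgeR adjusted p = 0.0106), which placed Lcn2 at rank 66 of 13864 genes by p. The call was lost without HFD replicate 1 (3.51, adjusted p = 0.0835) and without HFD replicate 3 (3.75, adjusted p = 0.0670), where the number of genes called fell to 23 and 25 in all. Without NCD replicate 3, the library with most Lcn2 in its group, the log2 change was 4.81.

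Neutrophils store lipocalin 2 in granules, so their markers stand beside this value. The 11 neutrophil markers summed to 1.87 to 4.97 CPM in NCD and 2.49 to 3.74 CPM in HFD, ranges that overlap. Of these markers, 3 (S100a8, S100a9 and Csf3r) passed the filter, with log2 changes of 0.18, 0.60 and 1.65, all above 0. In edgeR's test 0 were called, with 0 at an unadjusted p under 0.05. Among the markers not tested, Camp had 0 reads in 2 of the 3 HFD libraries and Mpo had 0 in 1. The 6 adipocyte markers summed to 6.69 to 10.7 CPM in NCD and 25.6 to 32.5 CPM in HFD. Most of that difference was in Cfd, adipsin, which rose from 0.521 ± 0.150 to 21.2 ± 1.55 CPM (SD, n = 3). Adipoq had at most 1 read in any NCD or HFD library, and Lep at most 2. Of the 7 stellate cell and fibroblast markers, 2 collagen genes were also called higher. Col1a1 rose by 2.58 (edgeR adjusted p = 0.00927) and Col3a1 by 1.19 (adjusted p = 0.0244) on the log2 scale. The others were not called, namely Col1a2 (0.75), Lrat (0.55), Dcn (0.09), Reln (-0.16) and Des (-0.19). The summed level of that list overlapped (91.4 to 117 CPM in NCD and 98.2 to 127 in HFD). The 8 B and plasma cell markers summed to 46.2, 68.1 and 503 CPM in NCD, highest in NCD replicate 1, and to 3.67 to 11.2 CPM in HFD, without overlap, and Igk fell by 5.21 on the log2 scale (edgeR adjusted p = 0.0329). Of these marker calls, that of Cfd held whichever library was left out, that of Col1a1 was lost without HFD replicate 1 or 3, that of Igk without any 1 HFD library or with the replicate block, and that of Col3a1 without NCD replicate 3 or any 1 HFD library. The part of these cells in the members' values was not tested.

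Haptoglobin, the haemoglobin-binding protein, was the most abundant member, and its difference was within its error. It measured 3357, 3768 and 3490.2 CPM in NCD and 3643, 3080.3 and 3709 CPM in HFD, with overlapping groups. The log2 change was 0.19 (SE 0.21; 95% interval -0.28 to 0.66; edgeR adjusted p = 0.568), and -0.03 with library size alone. It was 0.097 without NCD replicate 1 and 0.30 without HFD replicate 2.

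Saa2 encodes an inducible apolipoprotein of high-density lipoprotein. Its CPM values were 19.7, 9.81 and 9.81 in NCD and 32.2, 19.6 and 36.5 in HFD. The groups met at 1 point, where NCD replicate 1 lay just above HFD replicate 2. The log2 change was 1.40 (SE 0.33; 95% interval 0.65 to 2.14; edgeR adjusted p = 0.0460). This call was the least firm of the 3: it was lost when NCD replicate 2, NCD replicate 3 or any HFD library was left out (log2 changes 1.24 to 1.65, adjusted p 0.0612 to 0.210), with library size alone, with a mean of at least 50 counts and in a fit of all 12 libraries. Without NCD replicate 1, the NCD library with most Saa2, the log2 change was 1.74 (adjusted p = 0.000900).

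Saa1, its near-identical neighbour, measured 28.8, 31.3 and 18.1 CPM in NCD and 42.1, 25.5 and 40.2 CPM in HFD, and HFD replicate 2 lay inside the NCD range. The log2 change of 0.71 (SE 0.27; 95% interval 0.084 to 1.33) was not called (edgeR adjusted p = 0.137). With the counts of Saa1 and Saa2 summed, which sets aside the split of reads between them, the log2 change was 0.98 (SE 0.27; adjusted p = 0.0639).

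Saa4 is the constitutively expressed member of the family. It measured 173, 188 and 232 CPM in NCD and 323, 299.9 and 316 CPM in HFD, with a wide gap between the groups and a close spread in HFD (313 ± 11.7, SD, n = 3). The log2 change was 0.87 (SE 0.20; 95% interval 0.41 to 1.33; edgeR adjusted p = 0.0460). The call was lost without NCD replicate 2 or any 1 of the HFD libraries (log2 changes 0.83 to 0.93, adjusted p 0.0627 to 0.218) with library size alone (0.66, adjusted p = 0.0539) and in the fit blocked on replicate number (0.89, adjusted p = 0.0659). Saa3, made mainly by macrophages and adipocytes, measured 10.8, 4.91 and 5.18 CPM in NCD and 7.53, 4.62 and 6.51 CPM in HFD. NCD replicate 1 was the highest of all 12 libraries, as for 38.0% of genes with a mean count of 10 or more. The log2 change of Saa3 was 0.07 (SE 0.34, 95% interval -0.70 to 0.84), or 0.44 without NCD replicate 1.

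None of the orosomucoid genes was called for the diet. Orm1, by far the most abundant of them, measured 893, 1006 and 937 CPM in NCD and 668, 551 and 695 CPM in HFD. All HFD libraries lay below all NCD libraries on this scale, as for 27% of all genes tested, and the log2 change was -0.35 (SE 0.20; 95% interval -0.80 to 0.095; edgeR adjusted p = 0.266), or -0.23 without HFD replicate 2. Orm2 measured 15.8, 18.7 and 18.8 CPM in NCD and 39.8, 19.6 and 46.0 CPM in HFD. HFD replicate 2 lay just above the NCD range and the other HFD libraries at more than 2 times it. The log2 change of 1.20 (SE 0.32; 95% interval 0.46 to 1.94) missed the threshold (edgeR adjusted p = 0.0620), and passed it without NCD replicate 1 (1.06, adjusted p = 0.0306) or HFD replicate 2 (1.51, adjusted p = 0.0341). Orm3 measured 8.32, 5.84 and 5.05 CPM in NCD and 16.5, 3.91 and 15.6 CPM in HFD, where HFD replicate 2 was below every NCD library. Its log2 change was 1.15 (SE 0.50; edgeR adjusted p = 0.172), and 1.59 without HFD replicate 2 (adjusted p = 0.0463).

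Apcs encodes a pentraxin, the main acute-phase pentraxin of the mouse. It measured 28.8, 23.1 and 34.6 CPM in NCD and 39.8, 40.3 and 41.1 CPM in HFD. The HFD libraries were almost equal and all above NCD, with a log2 change of 0.68 (SE 0.20; 95% interval 0.23 to 1.14; edgeR adjusted p = 0.0724), or 0.59 without NCD replicate 1 (adjusted p = 0.0466). Counted over the members, 4 (Saa4, Orm2, Lcn2 and Apcs) had every HFD library above every NCD library, against 11.9% of all genes tested, and 1 (Orm1) had every HFD library below.

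**Figure D2:**
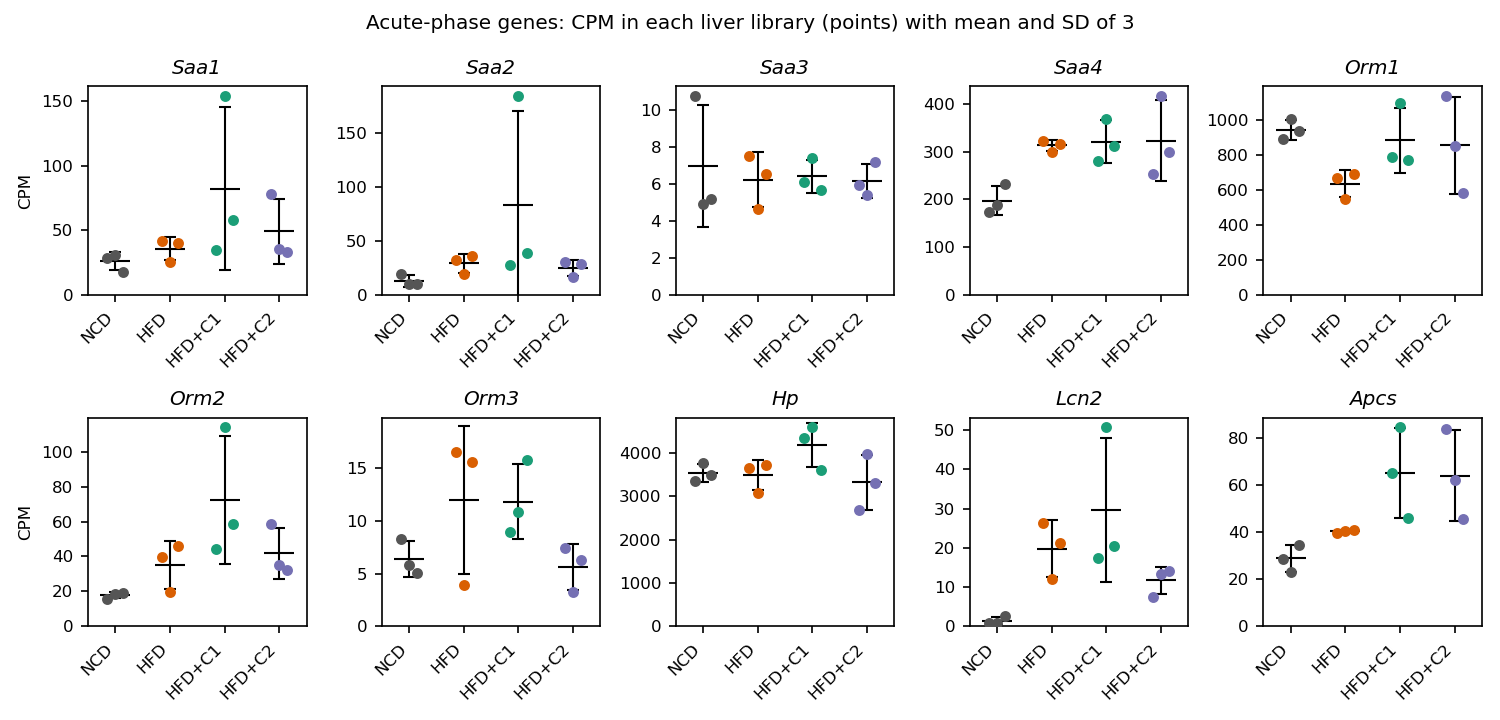
CPM of each member in each of the 12 libraries (points, replicates 1 to 3 from left to right), with the mean and SD of 3 libraries per group as horizontal and vertical lines; each panel has its own linear axis from 0, at which the lower SD of Saa2 in HFD+C1 is cut. Lcn2 lies at 0.81 to 2.64 CPM in NCD and at 12.0 CPM or above in HFD, and HFD+C1 replicate 2 stands above its group for Saa1, Saa2, Orm2 and Lcn2.

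Other genes of the response were read from 4 lists. Of 30 other positive acute-phase proteins, 26 were tested against the diet, of which 5 rose and 1 fell, where 6.03% of all genes were called, 2.59% higher and 3.44% lower. Their median log2 change was 0.46, against -0.02 over all genes, and 14 had an unadjusted p under 0.05, against 28.9% of all genes. Hamp2, of the hepcidin family, rose by 2.20 on the log2 scale (SE 0.18, edgeR adjusted p = 0.00210). It measured 21.5 ± 2.39 CPM in NCD and 85.1 ± 4.97 CPM in HFD (SD, n = 3). Hamp, of the same family and more abundant, was not called (log2 change 0.32, edgeR adjusted p = 0.544). The interleukin-1 receptor antagonist Il1rn (2.09), the antiproteinase Serpina3n (1.71), the metallothionein Mt1 (1.70) and the metalloreductase Steap4 (1.58) rose with edgeR adjusted p-values of 0.0446 to 0.04998. Il1rn was near the floor in NCD, with 8, 2 and 10 reads in replicates 1 to 3, against 51, 52 and 72 in HFD. It passed the filter on low counts through the HFD libraries. Serpina3k, an abundant serpin related to Serpina3n, fell by 1.18 on the log2 scale (edgeR adjusted p = 0.0421). Of 13 negative acute-phase proteins, whose levels are known to drop in inflammation, all were tested, 1 rose and 1 fell (median 0.38), and 7 had an unadjusted p under 0.05. Serpina6, corticosteroid-binding globulin, rose by 0.90 (edgeR adjusted p = 0.0458). Cyp7a1 fell by 2.68 (adjusted p = 0.00478) and encodes the rate-limiting enzyme of bile acid synthesis, which is not a plasma protein. Fetub measured -0.62 (adjusted p = 0.0898).

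Upstream of these proteins, 16 of 23 cytokine and receptor genes and 23 of 24 signalling and transcription factor genes were tested, and 1 of each was called, which is about the 6.03% of all genes. At an unadjusted p under 0.05 there were 3 and 10, against 28.9% of all genes. Among the former (median 0.18), Lifr, the receptor of leukemia inhibitory factor, fell by 1.37 on the log2 scale (edgeR adjusted p = 0.0326), with 262 ± 41.7 CPM in NCD and 87.9 ± 34.4 CPM in HFD (SD, n = 3). Tnfrsf1a (0.71, adjusted p = 0.0929) and Tlr2 (1.64, adjusted p = 0.125) came next by edgeR p. Tlr2 held only 2, 1 and 14 reads in NCD replicates 1 to 3. Of the inducing cytokines, Il6 had 0 reads in the 3 HFD libraries and 0 to 6 in NCD, Tnf had 2 to 7 and 0 to 3, and Il22 had 0 reads in all 12. The interleukin-1 genes were low but passed the filter: Il1a measured 0.633 ± 0.597 CPM in NCD and 1.39 ± 0.169 in HFD (log2 change 1.33; edgeR adjusted p = 0.204), and Il1b 1.73 ± 0.638 and 0.870 ± 0.123 CPM (-0.83; adjusted p = 0.294; SD, n = 3). Among the signalling genes (median 0.49), Nfkb2, a subunit of NF-kappa B, rose from 2.80 ± 0.210 to 6.37 ± 0.715 CPM (log2 change 1.41; edgeR adjusted p = 0.0291). The glucocorticoid-induced Tsc22d3 (-0.90, adjusted p = 0.0600) and the kinase gene Pim1 (-1.40, adjusted p = 0.0626) did not pass edgeR's test. Of the 10 listed genes called for the diet, Hamp2 alone kept its call whichever library was left out, and Cyp7a1 lost it only without HFD replicate 3. Without HFD replicate 2 the calls were Hamp2, Mt1, Cyp7a1 and Lifr, and without NCD replicate 3 or HFD replicate 1 they were Hamp2 and Cyp7a1. Without NCD replicate 2, Serpina3n, Serpina3k, Il1rn and Mt1 lost theirs, and without NCD replicate 1 none did.

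The second comparison set HFD+C1 against HFD, where C1 and a possible lack of injections in HFD cannot be told apart. It shares the HFD libraries with the first and with that of C2, so the values are given side by side and not related to each other. None of the 10 members was called by edgeR, where 0.0524% of the 13358 genes tested were (7 genes, all lower). At an unadjusted p under 0.05 there were 5 members, namely Saa1, Saa2, Orm1, Orm2 and Apcs, all with higher values, against 7.75% of all genes. The members' median log2 change was 0.50, against 0.01 over all genes tested, and 9 of 10 changes were above 0 (51.2% of all genes). Several of these values rested on 1 library, HFD+C1 replicate 2. Leaving out HFD replicate 2 gave no call among the members, with Orm2 at 0.71, Orm3 at -0.50 and Lcn2 at 0.27.

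Saa1 measured 34.8, 154 and 58.4 CPM in HFD+C1 replicates 1 to 3, and Saa2 27.5, 185 and 38.7. Replicate 2 held 2.64 times as much Saa1 and 4.77 times as much Saa2 as the higher of the other C1 libraries, while replicate 1 lay within the HFD range for both genes. The log2 change against HFD was 1.18 for Saa1 (SE 0.41; 95% interval 0.30 to 2.06; edgeR adjusted p = 0.461) and 1.49 for Saa2 (SE 0.54; 95% interval 0.33 to 2.66; adjusted p = 0.484). Without HFD+C1 replicate 2 the values were 0.32 and 0.12. The summed counts of Saa1 and Saa2 gave 1.33 (SE 0.47; edgeR adjusted p = 0.462). Saa3 (6.11, 7.42 and 5.67 CPM) and Saa4 (281, 369 and 312 CPM) were both at a log2 change of 0.01, with 95% intervals of -0.45 to 0.47 and -0.27 to 0.30.

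Orm2 measured 44.4, 114 and 58.5 CPM with C1, so that replicates 2 and 3 lay above every HFD library and replicate 1 below the highest. Its log2 change was 1.01 (SE 0.34; 95% interval 0.29 to 1.74; edgeR adjusted p = 0.437), or 0.50 without HFD+C1 replicate 2. Orm1 measured 788, 1102 and 771 CPM, above all HFD libraries, with a log2 change of 0.45 (SE 0.16; 95% interval 0.097 to 0.81; edgeR adjusted p = 0.487), or 0.25 without that library. Orm3 measured 8.91, 10.8 and 15.7 CPM and overlapped HFD (log2 change -0.07; 95% interval -0.91 to 0.77).

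Lcn2 measured 17.5, 50.7 and 20.5 CPM with C1, and replicates 1 and 3 lay within the HFD range. Its log2 change of 0.55 (SE 0.36; 95% interval -0.23 to 1.33; edgeR adjusted p = 0.799) became -0.12 without HFD+C1 replicate 2. Hp measured 4329.9, 4579 and 3603 CPM (log2 change 0.24; 95% interval -0.070 to 0.55; edgeR adjusted p = 0.769). Apcs was the member with the smallest p: it measured 64.9, 84.4 and 46.1 CPM, all above the 3 HFD libraries, with a log2 change of 0.67 (SE 0.18; 95% interval 0.28 to 1.07; edgeR adjusted p = 0.305), or 0.42 without HFD+C1 replicate 2. Apcs and Orm1 were the 2 members whose C1 libraries all lay above HFD, against 6.6% of all genes tested, and for no member did they all lie below (5.54% of all genes).

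HFD+C1 replicate 2 was the highest of the 12 libraries for 6 members, Saa1, Saa2, Orm2, Hp, Lcn2 and Apcs. It was highest for 3.01% of the 13466 genes that had a mean count of 10 or more. It was more than 2 times both other C1 libraries for 3 members (Saa1, Saa2 and Lcn2), against 0.594% of all genes, and this library was not among those with few assigned reads (28.7% not assigned). Its marker sums departed most from the other C1 libraries for cholangiocytes (64.0 CPM against 37.8 and 38.8), exocrine pancreas (49.1 against 27.8 and 20.9), adipocytes (16.7 against 33.1 and 35.5) and B and plasma cells (5.39 against 25.3 and 12.0). Its neutrophil markers summed to 4.02 CPM against 2.28 and 3.06, and its macrophage and Kupffer cell markers to 362 CPM against 289 and 325. Single genes carried the largest of these sums: Spp1 gave 56.1 of the cholangiocyte CPM in this library, against 29.1 and 31.4, and Cela1 gave 49.0 of the pancreas CPM, against 27.8 and 20.9. Of the 6 pancreas markers, Prss2, Cpa1, Pnlip and Amy2a5 were at 0 in every C1 library. Their part in the result was not tested. The library was singled out after its values were seen.

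**Figure D3:**
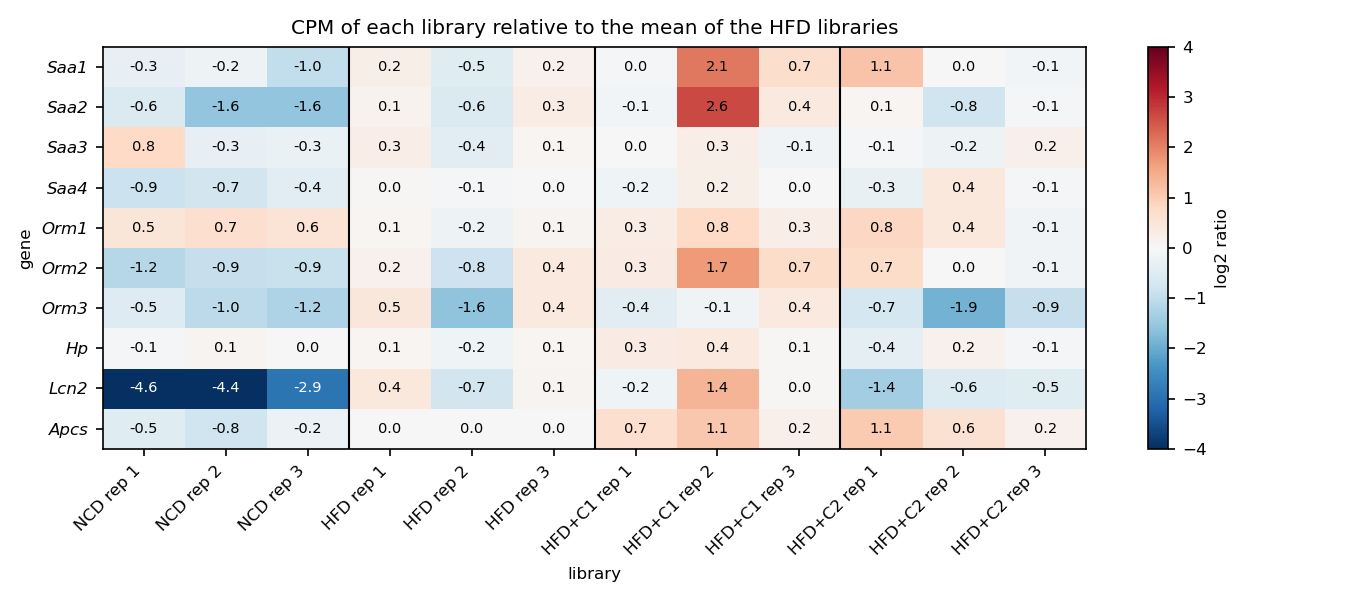
CPM of each member in each library as a log2 ratio to the mean of the 3 HFD libraries; colours run from -4 (blue) to 4 (red) and the number in each cell is the ratio. HFD+C1 replicate 2 is red for Saa1, Saa2, Orm2, Lcn2 and Apcs, and the NCD libraries are blue for Lcn2, at -4.6 to -2.9.

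The third comparison set HFD+C2 against HFD, with the same limit on injections. None of the members was called by edgeR (0.0222% of 13503 genes, 3 genes, all lower), and 2 members, Lcn2 and Apcs, had an unadjusted p under 0.05, against 6.89% of all genes. The members' median log2 change was 0.05, against 0.02 over all genes, and 6 of 10 were above 0 (52.2% of all genes). No member had every C2 library below HFD (8.39% of all genes). Leaving out HFD+C2 replicate 1, the library that stood apart, also gave 0 calls among the members, as did leaving out HFD replicate 2, with Orm2 at 0.02, Orm3 at -1.47 and Lcn2 at -1.01.

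Lcn2 measured 7.61, 13.4 and 14.1 CPM with C2, below 2 of the 3 HFD libraries and still above every NCD library. Its log2 change against HFD was -0.75 (SE 0.31; 95% interval -1.44 to -0.052; edgeR adjusted p = 0.695), or -0.55 without HFD+C2 replicate 1. Apcs measured 83.9, 62.3 and 45.7 CPM, all above HFD as for 4.58% of all genes tested, with a log2 change of 0.73 (SE 0.25; 95% interval 0.17 to 1.29; edgeR adjusted p = 0.695), or 0.42 without HFD+C2 replicate 1. The HFD libraries of Apcs, at 40.4 ± 0.656 CPM (SD, n = 3), were far closer to each other than those of either compound group (65.2 ± 19.1 with C1 and 64.0 ± 19.2 with C2).

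Saa1 measured 78.5, 35.8 and 33.3 CPM with C2, and replicate 1 alone lay above the HFD range. The log2 change was 0.52 (SE 0.37; 95% interval -0.31 to 1.36; edgeR adjusted p = 0.722), and -0.07 without that library. Saa2 measured 31.0, 16.8 and 28.3 CPM and overlapped HFD (log2 change -0.17; 95% interval -0.84 to 0.49). Without replicate 1 it was -0.42. In that library Saa1 was 2.19 times the next C2 library and Saa2 1.09 times, so the pair differed there. Saa3 (5.92, 5.41 and 7.20 CPM) and Saa4 (253, 416 and 299 CPM) had log2 changes of 0.02 and 0.09, with 95% intervals of -0.50 to 0.54 and -0.39 to 0.56.

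Orm1 measured 1140.1, 852 and 584 CPM with C2, the widest spread of any group for this gene, and a log2 change of 0.50 (SE 0.29; 95% interval -0.16 to 1.15; edgeR adjusted p = 0.699), or 0.17 without HFD+C2 replicate 1. Orm2 measured 58.7, 34.9 and 32.0 CPM (log2 change 0.31; 95% interval -0.50 to 1.12), or -0.09 without that library. Orm3 measured 7.44, 3.25 and 6.31 CPM, below HFD replicates 1 and 3, with a log2 change of -1.06 (SE 0.51; 95% interval -2.19 to 0.084; edgeR adjusted p = 0.695), or -1.38 without replicate 1. Hp measured 2678, 3959 and 3307 CPM (log2 change -0.03; 95% interval -0.55 to 0.48).

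**Figure D4:**
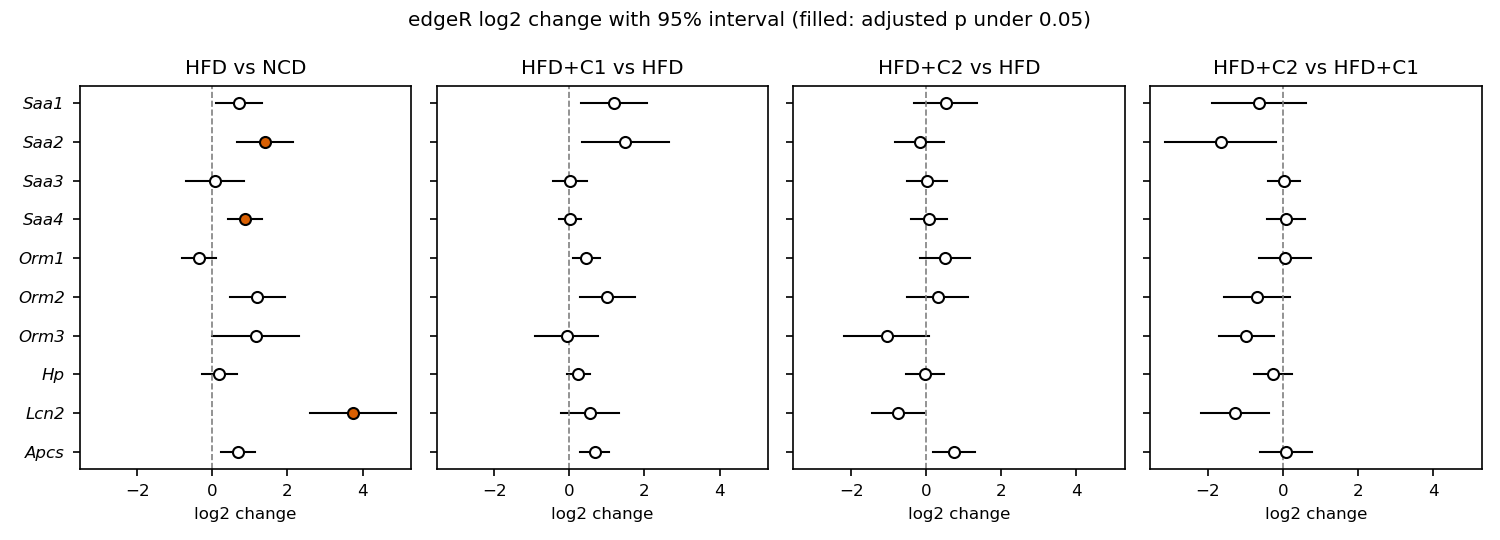
Log2 change of each member with its 95% interval in the 4 comparisons (edgeR, TMM scaling, 3 libraries per group); filled points passed an adjusted p of 0.05 and the dashed line marks 0. Only Saa2, Saa4 and Lcn2 are filled, all in HFD vs NCD, where Lcn2 lies at 3.75.

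The other genes of the response were read from the same lists for the compounds. No gene of the 4 lists was called in HFD+C1 against HFD, with 9 of 26 other positive acute-phase proteins, 2 of 13 negative ones, 0 of 16 cytokine and receptor genes and 1 of 23 signalling genes at an unadjusted p under 0.05, against the 7.75% of all genes. The list medians were 0.29, 0.16, 0.15 and 0.03. Nearest to a call in edgeR's test were Cyp7a1 at 1.27 (adjusted p = 0.0925), Fgl1, a fibrinogen-like hepatocyte protein, at 0.94 (adjusted p = 0.0984) and the hyaluronan-binding Itih3 at 0.63 (adjusted p = 0.206). To give the 3 genes of smallest p in each list, the others were Nnmt (0.56) of the positive proteins, Fetub (0.38) and Itih2 (0.26) of the negative ones, Cebpb (-0.54), Cebpd (-0.49) and Nfkb1 (0.28) of the signalling genes and Il10rb (0.34), Il1rap (0.14) and Myd88 (0.17) of the cytokine and receptor genes, with edgeR adjusted p-values of 0.295 to 0.857.

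With C2, again no listed gene was called, and 5, 1, 2 and 3 genes of the same lists had an unadjusted p under 0.05, against the 6.89% of all genes. The list medians were 0.30, -0.02, 0.16 and 0.09. Cebpb, which encodes the C/EBP family member C/EBP beta, had the smallest p of them. It measured 32.7 ± 6.88 CPM in HFD, 22.9 ± 5.26 with C1 and 15.4 ± 4.40 with C2 (SD, n = 3), a log2 change of -1.07 with C2 (SE 0.22; edgeR adjusted p = 0.625). Bcl3 (-0.75) and Relb (-0.78), both of the NF-kappa B pathway, Fgl1 (1.09), Itih3 (0.56), the fibrinogen chain Fgb (0.70), Cyp7a1 (1.60), Ttr (-0.38), Itih2 (0.34), Il1r1 (0.74), Il1rap (0.52) and Osmr (0.50) had edgeR adjusted p-values of 0.695 to 0.742.

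No marker of resident macrophages was called with either compound. All 10 macrophage and Kupffer cell markers had log2 changes above 0 against the shared HFD libraries with C1 and with C2. Their medians were 0.72 and 0.75, against 0.01 and 0.02 over all genes tested. Of these markers, 8 and 7 had an unadjusted p under 0.05 in edgeR's test, against 7.75% and 6.89% of all genes. Their summed level was 165 to 239 CPM in HFD, 289 to 362 with C1, 240 to 430 with C2 and 204 to 343 in NCD, with the highest C2 value in HFD+C2 replicate 1. Saa3, the member that macrophages make, was at 6.22 ± 1.48 CPM in HFD, 6.40 ± 0.909 with C1 and 6.18 ± 0.924 with C2 (SD, n = 3). The neutrophil markers summed to 2.28 to 4.02 CPM with C1 and 2.08 to 6.61 CPM with C2, again highest in HFD+C2 replicate 1. The part of these cells in the members' values was not tested.

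The compounds were compared directly, HFD+C2 against HFD+C1, at the same dose and duration. None of the members was called (0% of the 13229 genes tested were), and the 3 with an unadjusted p under 0.05 in edgeR's test, against 4.6% of all genes, were Saa2, Orm3 and Lcn2, all with lower values under C2. Lcn2 was lower in every C2 library than in every C1 library, with a log2 difference of -1.29 (SE 0.40; 95% interval -2.19 to -0.38; edgeR adjusted p = 0.841), or -0.62 without HFD+C1 replicate 2. Orm3 was lower without overlap too, at -0.98 (SE 0.33; 95% interval -1.72 to -0.23; edgeR adjusted p = 0.841), or -1.02 without that library. Lower values without overlap were found for 7.51% of all genes and higher ones for 4.09%. Saa2 differed by -1.66 (SE 0.65; 95% interval -3.13 to -0.18; edgeR adjusted p = 0.841), or -0.28 without HFD+C1 replicate 2.

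For the other members the difference between the compounds was within its error. It was -0.64 for Saa1 (95% interval -1.90 to 0.61), which became 0.21 without HFD+C1 replicate 2 and -1.24 without HFD+C2 replicate 1. It was -0.69 for Orm2 (-1.57 to 0.19), with -0.18 and -1.10 without the same libraries, and -0.26 for Hp (-0.77 to 0.25). Saa3 (0.02), Saa4 (0.08), Orm1 (0.06) and Apcs (0.07) had 95% intervals with lower bounds down to -0.64 and upper bounds up to 0.77, so differences of up to that size are not excluded. The summed Saa1 and Saa2 counts gave -1.07 (SE 0.59; edgeR adjusted p = 0.841). The members' median was -0.45, against 0.01 over all genes tested, and 4 of 10 values were above 0 (51.7% of all genes). None of the listed genes was called between the compounds, and the list medians were -0.01, -0.06, 0.08 and 0.05. The smallest unadjusted p-values in each list were those of Steap4 (0.33), Lrg1 (-0.66), Fgb (0.42), Apoa1 (-0.38), Rbp4 (-0.23), Fetub (-0.29), Tnfrsf1a (-0.40), Il1r1 (0.54), Il1rap (0.38), Relb (-0.84), Cebpb (-0.51) and Bcl3 (-0.60).

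How the members varied together was described by Pearson's r of log2(CPM + 1) over the 12 libraries, which share 4 groups and differ in depth, so no p is given. Saa1 went closest with Orm2 (0.90) and Saa2 (0.88), and Saa2 with Orm2 at 0.87. Without HFD+C1 replicate 2 these were 0.84, 0.71 and 0.80 over 11 libraries. Lcn2 went closest with Saa4 (0.89, and 0.88 without that library), both of which were lower in NCD. Orm1 had an r of -0.29 with Lcn2 and -0.29 with Saa4. Orm1 and Orm2 had 0.26 over all libraries and 0.81 as deviations from their group means. Hp had at most 0.38 with any other member over all libraries, but as deviations from group means it had 0.68 with Saa4 and 0.58 with Lcn2.

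Outside the 10 members, the genes most like 3 of them were found by the same r among the 10123 genes whose mean count was 50 or more. Those most like Saa1 were Rassf4 (0.84), Cebpe (0.79) and Spp1 (0.79). Cebpe (0.91) and Spp1 (0.85) were also the most like Orm2, followed by Oxld1 (0.83). Without HFD+C1 replicate 2, r with Spp1 was 0.59 for Saa1 and 0.75 for Orm2, and r of Cebpe with Orm2 was 0.90. The genes most like Lcn2 were R3hcc1 (0.96), Mrps15 (0.94) and Wdr18 (0.94), which reached 0.98, 0.95 and 0.97 without that library. As deviations from group means these were 0.90, 0.78 and 0.69.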

How the data were processed

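The authors deposited 3 tables of read counts per gene for the 12 liver libraries, with the HFD libraries repeated in each (0 cells differ). Although named as normalized, the deposited values are whole numbers with uneven totals, as raw counts are. Per the submitters' processing notes, Trimmomatic 0.39, STAR 2.7, DESeq2 and the mm10 build were used; annotation and strand use are not given in the sources used here. The 4 rows that name no gene held 27.3% to 58.2% of a library's reads and were left out. Of the value columns, 0 were left unmapped.

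CPM was computed from the deposited counts and the library's total in genes. Each comparison fitted its own 6 libraries with edgeR 4.0.16 in R 4.3.3 (quasi-likelihood test, TMM scaling, a mean of at least 10 counts, Benjamini-Hochberg adjustment over all genes tested); log2 changes, standard errors and 95% intervals come from that fit, which was tested on simulated data. Counts of PCR reads are not counts of molecules, so the floor of 3 counts covers counting error only. Transcript lengths and positions are those of GENCODE M21, and promoters those of RefSeq (GRCm38.p6).

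All members are named. Of the 4 lists, named are genes called and, where fewer than 3 were called, those with the smallest p up to 3 in all. Of the marker lists of 10 cell types, those with values beside a result are given in the text; for the diet, 1 of 4 tested B and plasma cell (lower), 0 of 2 T and NK cell, 2 of 7 stellate cell (higher), 0 of 5 endothelial, 0 of 4 cholangiocyte and 0 of 1 exocrine pancreas markers were called. Members and lists were chosen with earlier results of these data known. Alternatives were DESeq2 1.42.0, median-ratio scaling, library size only, no filter, a minimum mean count of 50, a block for the replicate number, a fit of all 12 libraries and leaving out each library. Summing Saa1 and Saa2 counts was chosen after seeing the data.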

Additional observations from a re-analysis of the deposited data

How the results depend on the processing

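Of the members' log2 changes over all alternatives, 441 of 520 kept their direction and side of the threshold, 16 lost a call, 19 gained one and 44 changed sign; the causes were not tested. For the diet, the members called (3) came to 5 with DESeq2, 7 with no filter on low counts, 1 with library size only and 0 to 5 with 1 library left out, and the genes called (836) to 2298, 4493, 1105 and 23 to 1838; a mean of at least 50 counts gave 524 genes and a fit of all 12 libraries 1996. For C1, 7 genes became 72 with DESeq2, 206 with no filter, 0 in the fit of all 12 and 2 to 102 with 1 library left out, and the members called went from 0 to 5 with no filter only. For C2, 3 genes became 35, 152, 0 and 0 to 27, with 1 member (Orm3) with no filter. Between the compounds, 0 genes became 3 with DESeq2, 162 with no filter, which called 3 members (Saa2, Orm3 and Lcn2), and 0 to 1 with 1 library left out. With no filter, edgeR's prior degrees of freedom became infinite, so each gene's own spread no longer counted.

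Same-numbered libraries did not deviate together (r of deviations from group means -0.22 to 0.29), so the numbers were not taken as a pairing. With the replicate block, 483 genes and 2 members were called for the diet, 36 genes for C1, 3 for C2 and 0 between the compounds; Saa4 (adjusted p = 0.0659) lost its call, as did Serpina3k, Il1rn, Serpina6 and Nfkb2 of the 10 listed genes and Igk of the markers, Orm3 was 0.11 with C1 and Orm1 -0.0058 between the compounds.

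Mt1 and Steap4 lost their diet calls with a mean of at least 50 counts, Mt1 and Serpina6 in the fit of all 12, and Serpina3k with no filter. With library size only, Il1rn, Mt1, Steap4 and Serpina6 lost theirs, the diet values of Saa3 and Hp were -0.18 and -0.031, Saa3 was -0.012 with C2, and Saa3, Orm1 and Apcs were -0.054, -0.047 and -0.027 between the compounds; Saa3 was -0.0070 for the diet with a mean of at least 50 counts. Leaving out 1 library gave, for values that changed sign, -0.11 to 0.44 for Saa3 on the diet. With C1 the ranges were -0.18 to 0.21 (Saa3), -0.12 to 0.11 (Saa4), -0.50 to 0.27 (Orm3) and -0.12 to 0.84 (Lcn2). With C2 they were -0.069 to 0.79 (Saa1), -0.42 to 0.050 (Saa2), -0.16 to 0.21 (Saa3), -0.15 to 0.19 (Saa4), -0.086 to 0.56 (Orm2) and -0.19 to 0.057 (Hp). Between the compounds they were -1.24 to 0.21 (Saa1), -0.070 to 0.15 (Saa3), -0.15 to 0.21 (Saa4), -0.28 to 0.31 (Orm1) and -0.25 to 0.32 (Apcs). Lcn2 on the diet was called in 7 of 7 alternatives with all libraries (3.55 to 3.97) and 4 of 6 with 1 left out. Depth limits Lcn2 in NCD, where 2 libraries held 4 and 8 reads.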
